A study of Chlamydomonas reinhardtii with 2 samples.

Results

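The regions described here are the faintly read 1 kb windows of the Chlamydomonas reinhardtii genome, those with 1 to 9 reads in sum over both deposited libraries. The assembly was divided into 1 kb windows along its global coordinate, reads were summed by start position, and 39537 of 112306 windows (35.2%) had a sum in that range. Both libraries were made from poly-A purified, randomly fragmented RNA of this single-celled green alga and read as single ends of 35 nt. They form 1 group of 2 samples, titled as strain 2137 (culture collection number 1021). The strain was grown at 23 °C under constant light (50 to 90 µmol per m2 per s) in acetate-containing TAP (Tris-acetate-phosphate) medium. The medium carried a revised recipe of trace elements. The strain tag of replicate 2 reads 2138 and goes against its own title, so each library's value stands beside the main results. The group has no mutation, second medium or control, so nothing here is a comparison of conditions, and the labels do not say whether the cultures were separate.

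Poly-A selection enriches the processed messenger RNA of a cell, which in Chlamydomonas comes from densely packed, intron-rich nuclear genes. Low numbers of reads outside abundant transcripts can come from genes that are weakly transcribed, from introns before they are spliced out, from transcripts that run past a gene's end, from non-coding RNA, or from reads placed at a wrong position. The tables name no gene and no strand, and no sequence or annotation of this assembly version was used here, so these sources were not told apart and no sequence is printed. A level is an average over the culture: few cells with a transcript and little transcript in every cell cannot be told apart.

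The faint windows held very few of the reads. They took 150967 of 11167842 uniquely aligned reads (1.35%), with 72087 from replicate 1 and 78880 from replicate 2, which were 1.34% and 1.36% of the respective library totals of 5380216 and 5787626. Among the 83672 windows with any read they were 47.3%. The reads that start in them lay on 4.10 Mb of bases, an amount equal to 10.4% of the 39.5 Mb the windows span. Some of these bases lie in the next window, since a read that starts in the last 34 nt can reach into it. A further 28634 windows had no read, 33722 had 10 to 99 and 10413 had 100 or more. Windows of the last class are called abundant below, and they held 88.9% of the reads.

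The members were chosen by their summed reads per window, which are therefore given as a description. The most frequent sum was 1 read, in 9272 windows (23.5% of the faint ones), then 2 reads in 6628 and 3 reads in 5137. The numbers went down at each step to 2458 windows of 8 reads and 2197 of 9. The median was 3 reads and the mean 3.82. Scaled to a total of 1000000 reads (RPM), 1 read was 0.0895 RPM with an exact 95% Poisson interval of 0.00227 to 0.499, and 9 reads were 0.806 RPM (0.369 to 1.53). Just outside the limit, 1922 windows had 10 reads. Windows of 9 and 10 reads had close values in the other measures: a median distance of 6 kb to an abundant window in both, 17.5% and 17.6% of alignments under 35 nt, and 0.954 and 0.952 distinct start positions per read.

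Reads of the faint windows were divided between the libraries nearly as a split at the ratio of library totals gives. Both libraries had a read in 24636 faint windows, 62.3% (exact 95% binomial interval 61.8 to 62.8), where splitting each window's reads at that ratio gives 62.5%. Replicate 1 alone had a read in 6948 windows and replicate 2 alone in 7953. A window of 1 read cannot be found in both libraries, and among the 30265 windows of 2 to 9 reads the share was 81.4% (81.0 to 81.8), against 81.6% from the split.

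The share was close to the split at each sum. At 2 reads it was 49.3% (48.1 to 50.5) where the split gives 49.9%, and at 3 reads 75.0% against 74.9%. At 4 reads it was 86.5% (85.4 to 87.5) against 87.4%, and at 9 reads 99.5% against 99.6%. The interval held the value of the split at each sum from 2 to 9 reads. Windows of 9 reads from a single library were few, 4 from replicate 1 and 6 from replicate 2.

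**Figure D1:**
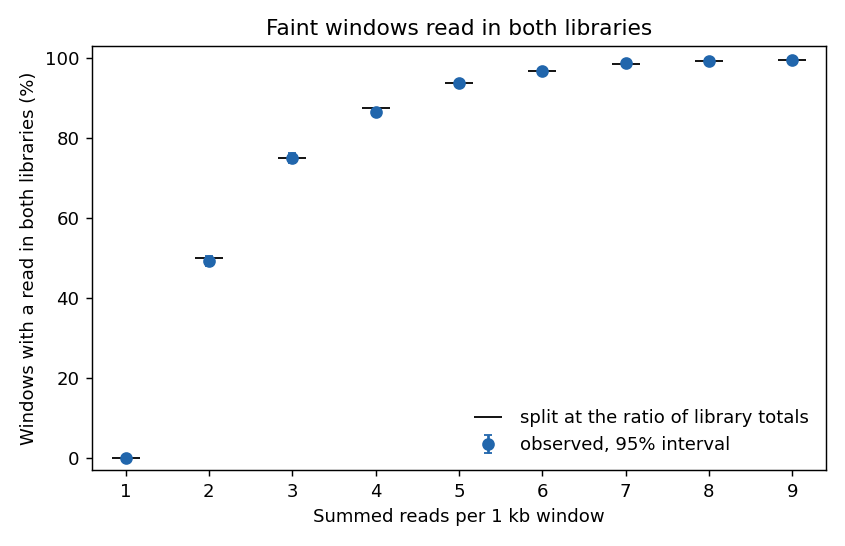
The horizontal axis is the summed reads of a faint 1 kb window and the vertical axis the percentage of windows with a read in both libraries (points, with exact 95% binomial intervals), with bars for the split of each sum at the ratio of library totals. Points and bars lie together from 2 reads (49.3% against 49.9%) to 9 reads (99.5% against 99.6%).

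Windows chosen in 1 library were then measured in the other, which had no part in the choice. Of 31361 windows with 1 to 4 reads in replicate 1, 78.3% (77.8 to 78.7) had a read in replicate 2, with a mean of 2.52 reads, and 559 (1.78%) had 10 or more there. In the reverse direction 75.0% (74.5 to 75.5) of 30792 windows had a read in replicate 1, with a mean of 2.17. The mean in replicate 2 was 0.371 reads for windows without a read in replicate 1, 1.44 for those with 1 read, 2.44 for 2, 3.39 for 3 and 4.37 for 4. The second library thus held more reads where the first had held more, over steps of a single read. Of the 36595 windows empty in replicate 1, 21.8% (21.3 to 22.2) had a read in replicate 2, and the highest count among them was 14.

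Faint windows mostly lay several kilobases from an abundant window. Their median distance to the nearest abundant window was 8 kb, with an interquartile range of 4 to 15 kb and a maximum of 181 kb. The median depends on depth and on the limit for abundant windows: it was 12 and 13 kb with replicates 2 and 1 taken alone, 5 kb with a limit of 50 reads and 14 kb with 200. Windows without a read were at a median of 15 kb (7 to 32), and windows of 10 to 99 reads at 4 kb (2 to 8). An abundant window adjoined 1899 faint windows (4.80%), 3.27% of the windows without a read and 22.6% of those with 10 to 99 reads. A distance above 20 kb was found for 5879 faint windows (14.9%), for 39.7% of the windows without a read and for 6.64% of those with 10 to 99. Distances run along scaffolds joined end to end, so some cross a scaffold boundary. No test is given for these differences, since windows of 1 genome are not replicates and both libraries share them.

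**Figure D2:**
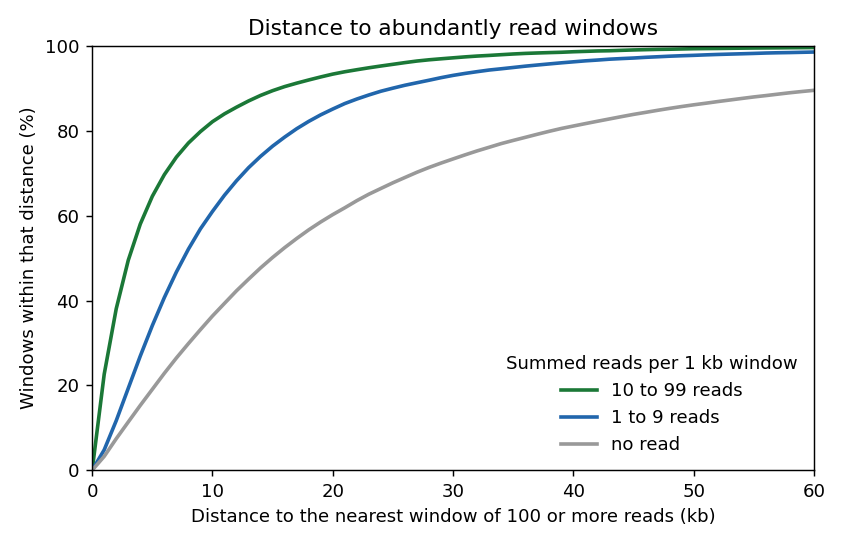
The horizontal axis is the distance in kb to the nearest window of 100 or more reads and the vertical axis the cumulative percentage of windows, with 1 line for each class of summed reads. The line of faint windows lies between the others, with a median of 8 kb against 4 kb for windows of 10 to 99 reads and 15 kb for windows without a read.

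Within the faint class the level was lowest far from abundant windows. Windows of 1 read were at a median of 10 kb, those of 5 reads at 8 kb and those of 9 reads at 6 kb. The mean reads per faint window were 4.05 next to an abundant window, 4.34 at 3 to 4 kb, 3.52 at 10 to 19 kb and 2.87 at 50 kb or more. Both libraries had a read in 69.3% of faint windows at 3 to 4 kb and in 47.2% of those at 50 kb or more, which has more windows of a single read (37.7% against 18.3%).

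The faint class was the most frequent one at intermediate distances. Abundant windows themselves are left out of these shares. Of the other windows next to an abundant one, 18.1% were faint and 72.9% had 10 to 99 reads. At 5 to 9 kb the faint share was 48.7%, and at 10 to 19 kb it was 47.8%, against 21.03% and 32.7% without a read. At 50 kb or more 17.4% of windows were faint and 78.0% had no read. The member farthest from any abundant window, at 81064001 to 81065000 (global positions, assembly version 3.1), had 1 read of 35 nt from replicate 2 and none from replicate 1. It lay 181 kb away, and both its neighbours had no read.

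Reads of faint windows beside an abundant window gathered near the shared edge. In the 1848 faint windows with an abundant window on 1 side, 20.4% (19.5 to 21.3) of 7484 reads started within the 100 nt nearest to it, 11.4% in the next 100 nt and 7.62 to 9.91% in each of the other 8 steps. The first step held 20.5% of the reads of replicate 1 and 20.3% of those of replicate 2. With the abundant window on the left the first step held 19.2% (17.9 to 20.5), and with it on the right 21.5% (20.2 to 22.9). A position names the leftmost base of an alignment, so on the right side reads that start in the last bases of the window reach into the abundant neighbour. In the 37638 faint windows without an abundant neighbour each step of 100 nt held 9.57 to 10.9% of the reads, with the highest values in the outermost steps on either side.

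**Figure D3:**
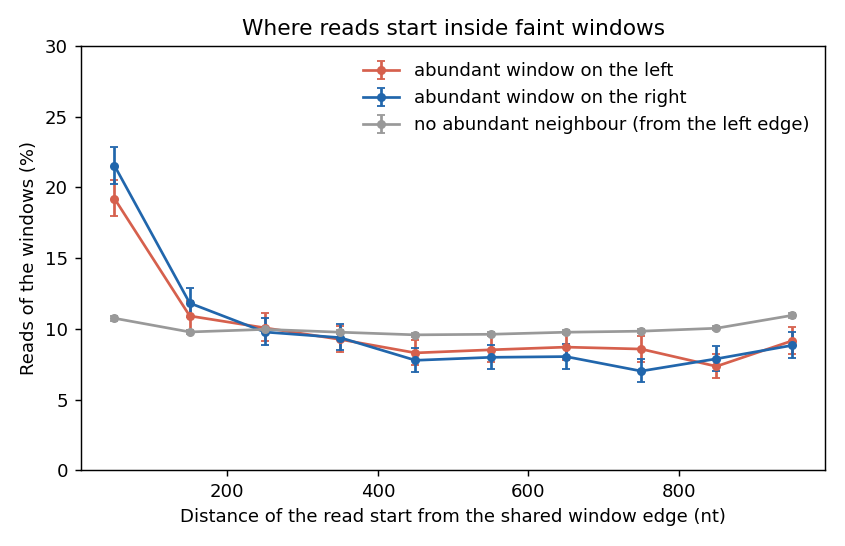
The horizontal axis is the distance in nt of a read's start from the edge shared with the abundant window (for windows without such a neighbour, from the left edge) and the vertical axis the percentage of reads in each 100 nt step, with exact 95% binomial intervals. The step nearest to an abundant window holds 19.2% and 21.5% of the reads, and the grey line stays between 9.57 and 10.9%.

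Only 51 faint windows had an abundant window on both sides, with a median of 3 reads. The one between the deepest neighbours was at 41324001 to 41325000. It had 2 reads, both from replicate 1 and both of 35 nt, starting at 41324451 and 41324880. The windows to its left and right had 17383 and 9103 reads. Neither read started in the outermost 100 nt of the window.

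Windows of each class, faint ones included, often followed their own kind along the assembly. The window after a faint window was also faint in 59.6% of cases, where 35.2% of all windows are faint. It had 10 to 99 reads in 20.9% of cases, no read in 17.1% and 100 or more in 2.45%. After a window without a read the next was faint in 23.5% of cases, and after an abundant one in 9.43%. A window of the same class came next in 69.5% of cases for windows without a read (25.5% of all windows), in 59.2% for 10 to 99 reads (30.03%) and in 47.5% for abundant windows (9.27%). Consecutive faint windows formed 15992 runs with a mean length of 2.47 windows and a median of 2. Runs of 1 window were 7425, or 46.4% (45.7 to 47.2) of the runs, and held 18.8% of the faint windows. Runs of 5 or more windows were 2224 and held 38.2%. Runs of windows without a read had a mean of 3.28 windows and reached 150, and runs of 10 to 99 reads had a mean of 2.45 and reached 16.

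Most runs had a more deeply read window on at least 1 side. In 5259 runs (32.9%) both flanking windows had 10 to 99 reads, and in 5020 (31.4%) 1 flank had 10 to 99 reads and the other none. In 3845 runs (24.0%) both flanks had no read, and these runs were short, with a mean of 1.89 windows. The 784 runs (4.90%) between a window without a read and an abundant one were about as short, with a mean of 1.93. Only 83 runs (0.519%) lay between 2 abundant windows, with a mean of 2.14 windows and a longest run of 10. Reads per window were similar over run lengths, at 3.88 in runs of 1 window and 3.67 in runs of 10 or more. The share of windows read in both libraries was 57.7% in runs of 1 window and 63.4% in runs of 10 or more.

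**Figure D4:**
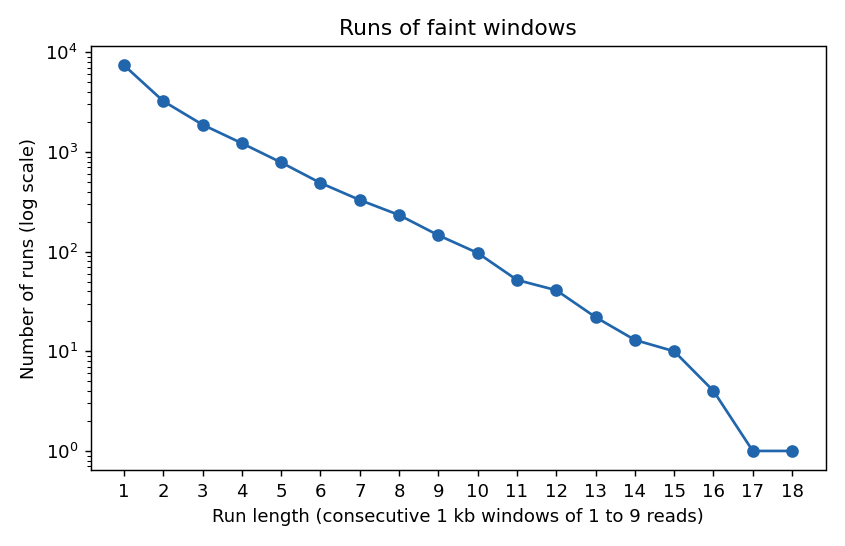
The horizontal axis is the number of consecutive faint 1 kb windows in a run and the vertical axis the number of runs on a log scale. The number goes down from 7425 runs of 1 window to 1 run each of 17 and 18 windows.

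The longest runs held reads from both libraries, each at a start of its own. The longest was 18 windows at 30684001 to 30702000, with 48 reads at 48 different starts, 24 from each replicate. Its windows had 1 to 8 reads with a median of 2, and 10 of the 18 had a read from both libraries. It lay 14 to 31 kb from an abundant window, with 0 reads in the window on its left and 16 in that on its right. The fullest window of the run, 30688001 to 30689000, had 8 reads, 4 from each replicate.

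The next run, of 17 windows at 29551001 to 29568000, had 83 reads at 83 starts, 40 from replicate 1 and 43 from replicate 2. Its windows had 1 to 9 reads with a median of 5, and 13 were read in both libraries. The third, the first along the assembly of 4 runs of 16 windows, lay at 8343001 to 8359000. It had 65 reads at 65 starts, 33 and 32 from the replicates, and 8 of its 16 windows were read in both libraries. In these 3 runs no start position was read more than once. Alignments under 35 nt were 10.4%, 15.7% and 13.8% of their reads. These low values are not typical of long runs: the share was 20.4% (19.6 to 21.2) over all 241 runs of 10 or more windows. In runs of 1 window it was 20.1%.

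Most reads of faint windows had a start of their own, while 8677 reads (5.75%) shared it with another read. The 150967 reads had 146365 distinct starts, 0.970 per read, and 0.985 in replicate 1 and 0.982 in replicate 2 taken alone. The value was 0.862 in windows of 10 to 99 reads and 0.192 in abundant windows, where reads are many against the 1000 positions of a window. Windows of 1 read have 1 start per read by definition. Within the faint class the value was 0.987 at 2 reads, 0.971 at 5 and 0.954 at 9. Reads laid evenly over 1000 positions would have 0.999, 0.998 and 0.996.

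Reads lay closer together than even placement in a window gives. In the 6628 windows of 2 reads the starts were a median of 213 nt apart. Both reads had the same start in 177 windows (2.67%), where even placement gives 0.100%, and a further 1128 windows (17.0%) had starts 1 to 34 nt apart. Even placement gives 6.78% for both kinds together. Starts 500 nt or more apart were seen in 20.7% of windows against 25.1% from even placement. The reads of a same-start pair came from different libraries in 77 of 177 windows, 43.5% (36.1 to 51.1), where all windows of 2 reads had 49.3%. For pairs 1 to 34 nt apart it was 50.3% (47.3 to 53.2). Over all reads of faint windows, the nearest other read start in the summed libraries, in the same window or beyond it, was a median of 38 nt away, and 8620 reads (5.71%) had none within 500 nt.

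Some starts were read repeatedly. Of the 146365 starts, 3703 had 2 reads, 276 had 3 and 96 had 4 or more. Starts with 2 reads were found in both libraries in 48.7% of cases (49.9% from the split), and those with 3 reads in 73.6% (74.9%). At 4 reads the share was 86.7% (87.4%), and at 5 reads it was 85.7% (93.7%), 18 of 21 starts. All 15 starts with 6 or more reads were found in both libraries, where the split gives 96.8% at 6 reads and 99.2% at 8.

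The fullest start positions illustrate this. Position 13090237, in the window 13090001 to 13091000, had 8 of the 9 reads there, 5 from replicate 1 and 3 from replicate 2, all of 21 or 22 nt. Position 51350962, in 51350001 to 51351000, also had 8 of 9 reads, 2 from replicate 1 and 6 from replicate 2, all of 22 nt, and the remaining read was also trimmed. Position 106001, the first base of the window 106001 to 107000, had 7 of 9 reads, 4 and 3 from the replicates, all of 35 nt. It is the first along the assembly of 4 starts with 7 reads. That window adjoined an abundant one of 735 reads on its left, whereas the other 2 lay 13 and 10 kb from an abundant window.

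Alignments under 35 nt are reads that did not align whole and were shortened at either end until they matched, and they made up a larger share of reads in the faint windows. They were 29349 reads or 19.4% (19.2 to 19.6), against 12.2% (12.2 to 12.3) in windows of 10 to 99 reads and 8.88% (8.86 to 8.89) in abundant windows. The faint windows had 19.2% in replicate 1 and 19.7% in replicate 2, and abundant windows 8.76% and 8.98%. Both libraries had the higher share in faint windows, and no test is given, since an exact two-sided paired permutation test over 2 libraries cannot go below p = 0.5. The intervals cover counting error only.

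The share was highest in the faintest windows. It was 25.0% (24.1 to 25.9) at 1 read, 22.7% at 2, 21.2% at 3, 19.3% at 5 and 17.5% (17.0 to 18.0) at 9 reads. In windows of 1 read it was 25.1% in replicate 1 and 24.9% in replicate 2, and in windows of 9 reads 17.3% and 17.6%. The order was also found in a library that took no part in the choice. Reads of replicate 2 were trimmed in 22.9% (22.2 to 23.7) of cases in windows empty in replicate 1, in 20.1% where replicate 1 had 1 read, in 17.2% where it had 4 and in 8.98% where it had 50 or more. With the libraries exchanged the values were 23.2%, 19.9%, 17.0% and 8.76%.

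**Figure D5:**
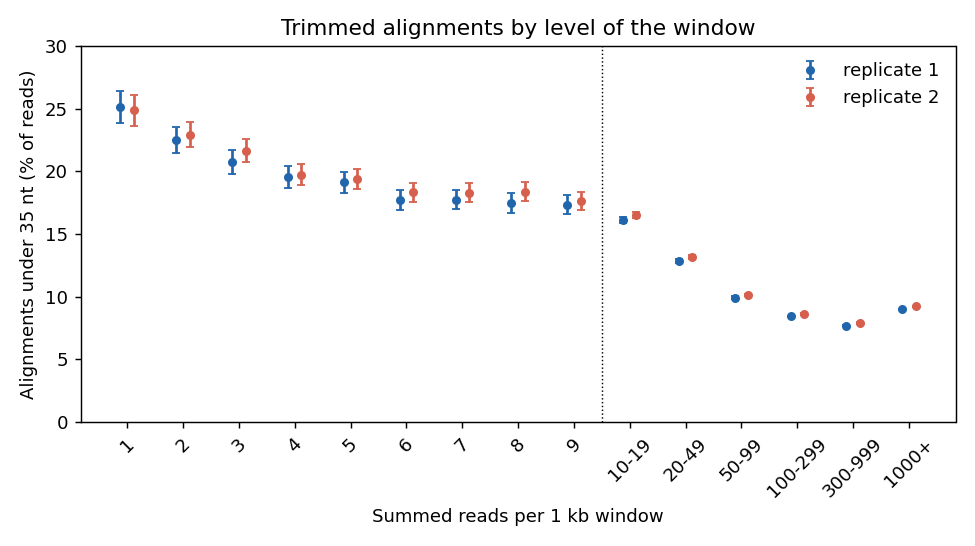
The horizontal axis is the summed reads of a 1 kb window (faint windows left of the dotted line) and the vertical axis the percentage of reads aligned over fewer than 35 nt, with 1 point for each library and exact 95% binomial intervals. Both libraries go from 25.1% and 24.9% at 1 read to 17.3% and 17.6% at 9 reads, with lower values in fuller windows.

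The shortest alignments made up the larger part of the difference. Alignments of 21 nt, the shortest kept, were 3.37% (3.28 to 3.46) of reads in faint windows and 0.837% in abundant ones, and 3.44% and 3.31% in faint windows of replicates 1 and 2. Alignments of 21 to 24 nt were 9.97% against 3.31%, those of 25 to 28 nt 5.96% against 3.19%, and those of 29 to 33 nt 3.51% against 2.37%. At 32 nt the shares were 0.499% and 0.386%. Among trimmed reads alone, 51.3% had 21 to 24 nt in faint windows and 37.3% in abundant ones. A short alignment needs fewer matching bases, and how many of these reads were misplaced was not tested.

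Trimmed reads were more frequent both at shared starts and at isolated positions. Of reads in faint windows that shared their start with another read 34.7% (33.7 to 35.7) were trimmed, of those with the nearest other start 1 to 34 nt away 16.5% (16.2 to 16.8), at 200 to 499 nt 22.7%, and at 1000 nt or more 28.4% (26.7 to 30.1). Each library alone gave 34.5% and 34.9% for the first and 28.7% and 28.1% for the last of these. In faint windows with an abundant window on 1 side the share was 10.5% (8.99 to 12.1) in the nearest 100 nt and 18.9% (16.0 to 22.1) in the farthest. At distances from 2 to 49 kb from an abundant window it stayed between 19.5 and 19.9%, and it was 15.7% in adjoining windows and 21.7% (20.1 to 23.3) at 50 kb or more.

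Trimmed reads of different lengths that stop at the same base can mark places where the read sequence departs from the genome, as at the edge of an exon. In the faint windows 656 positions were the left end of trimmed alignments of at least 2 lengths and 612 the right end. The same count at a control position, the start minus the length, gave 61. That position lies outside its own alignment, though other reads can end there. Alignments of different lengths that share an end always get different control positions, so the control is not a background rate for shared ends. It does not reproduce how often reads share a start, and the source of the shared ends was not tested. With at least 3 lengths there were 58 left and 41 right ends against 2 control positions. Of these 48 of 58 (82.8%) and 34 of 41 (82.9%) had reads from both libraries. Such ends have at least 3 reads by definition, and the split at library totals gives 74.9% for 3 reads and 87.4% for 4. The left and right ends of at least 3 lengths lay in 58 and 40 faint windows, a small share of the 39537. A start read repeatedly at different lengths counts as a left end whatever its source.

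The windows of 9 reads with the most trimmed reads showed both patterns. Among 2197 such windows 571 had no trimmed read, 5 had 8 and 3 had 9. The window 91008001 to 91009000 had 9 trimmed reads, 4 from replicate 1 and 5 from replicate 2. Of these, 7 ended at base 91008865, with starts between 91008836 and 91008842 and 6 lengths of 24 to 30 nt, the most lengths at any shared end in the faint windows. It lay 3 kb from an abundant window, and its neighbours had 80 and 35 reads.

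The window 32084001 to 32085000 had 9 trimmed reads of 21 to 23 nt, 3 from replicate 1 and 6 from replicate 2. Of these 7 started at 32084879, the others at 32084876 and 32084882. It lay 72 kb from an abundant window, and both its neighbours had no read. The third is the window at 51350001 to 51351000 described above, with neighbours also at 0 reads.

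The faint windows were spread over the whole assembly. In 23 bins of 5 Mb, the last of them shorter, their share of windows ranged from 25.0 to 39.2% with a median of 36.0%. Up to 100 Mb it lay between 33.5 and 39.2% in all 20 bins, while the share without a read ranged from 16.7 to 40.2%. The lowest shares were in the last 2 bins, 25.9% at 105 to 110 Mb and 25.0% beyond 110 Mb, where 48.0% and 53.7% of windows had no read. The share of trimmed reads in faint windows ranged from 18.1 to 21.4% over the 23 bins, and their median distance to an abundant window from 7 to 11 kb.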

How the data were processed

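RNA-seq reads of 2 libraries of 1 group were used. Per the deposited readme, the authors aligned 35 nt reads with SOAP, whose version is not given in the sources used here, against the unmasked assembly version 3.1, with 1266 scaffolds, allowing 2 mismatches. Leftover reads were trimmed at either end, down to 21 nt, to a perfect match. The deposited values are raw counts of uniquely aligned reads per start position and alignment length, so repeats and near-identical copies are missing. The annotation at hand is of version 5.5, and no gene was assigned.

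Windows were numbered as start position minus 1, divided by 1000. Members had 1 to 9 summed reads. Distances were counted in windows to the nearest of 100 or more reads. Depth was 5380216 and 5787626 reads. Intervals are exact at 95% (Clopper-Pearson or Poisson) and cover counting error only, as reads carry no molecular identifiers. The 2 libraries were summed and counted as 1 sample, and no significance test was made. Values for split and even placement come from formulas. Python 3.11.15, NumPy 2.4.6, pandas 2.3.3 and SciPy 1.17.1 were used, and the functions were tested on simulated data. The members, the measures and the rule for named windows (3 longest runs, farthest member, member between the deepest neighbours, 3 fullest starts, 3 windows of 9 reads with most trimmed reads) were chosen with earlier results of these data known. Shared ends, nearest reads, positions inside windows and 5 Mb bins were added after the files were seen.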

Additional observations from a re-analysis of the deposited data

How the results depend on the processing

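The 39537 faint windows became 87989 with 500 nt windows, 14914 with 2 kb windows and 25348 with members of 1 to 4 reads, and stayed within 1.5 times otherwise. The median distance of 8 kb became 8.5 kb with 500 nt windows, 9 kb with members of 1 to 4 reads, 9 kb with each position and length counted once per library, 5 kb when 50 reads made a window abundant and 14 kb when 200 did. The 46.4% of runs with 1 window became 52.7% with 2 kb windows, 53.1% with members of 2 to 9 reads and 59.1% with 1 to 4. The 97.0 starts per 100 reads became 95.9 (500 nt), 97.4 (2 kb), 96.8 (2 to 9 reads), 98.3 (1 to 4 reads), 97.5 (only alignments of 35 nt) and 98.0 (each position and length once). The 19.4% of trimmed reads became 18.6% (500 nt), 20.8% (2 kb), 19.1% (2 to 9 reads) and 21.7% (1 to 4 reads). The 62.3% of windows read in both libraries became 57.1% (500 nt), 65.7% (2 kb), 81.4% (2 to 9 reads), 42.8% (1 to 4 reads) and 61.5% (only 35 nt). The 78.3% of windows chosen in replicate 1 and read in replicate 2 became 75.0% in the reverse direction. Leaving out 1 library gave 44712 to 45084 faint windows, a median distance of 12 to 13 kb, 43.9 to 44.0% of runs with 1 window, 97.5 to 97.6 starts per 100 reads and 17.5 to 18.0% trimmed reads. Fewer reads per window are part of that setting, and the cause of the other shifts was not tested. Shifting the grid by 500 nt and leaving out positions above 100 Mb (added after seeing the data) kept the number of faint windows within 1.5 times and the other values inside their intervals, except that the share chosen in 1 library and read in the other was not recomputed under them. The median distance thus depends on depth and on the limit for abundant windows. No paired analysis was possible because no second group shares the replicate numbers.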
